A study of Mus musculus with 6 samples.

Results

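The amino acid transporter genes described here are 10 genes of the mouse solute carrier families, Slc7a1, Slc7a3, Slc7a5, Slc7a7, Slc7a11, Slc3a2, Slc1a4, Slc1a5, Slc38a1 and Slc38a2. They encode amino acid carriers of the plasma membrane or their heavy chain, were taken by gene symbol, and are 10 of the 31863 genes with a usable isoform. Their levels were compared between TT-FHAgo2 cells, a mouse embryonic stem cell line, taken off doxycycline for 96 h (2 libraries) and cells of the same line given 2.5 µg/mL doxycycline for 48 h (2 libraries). Both groups were propagated beforehand in 0.1 µg/mL doxycycline, and in this clonal line the drug controls Ago2, a protein that loads microRNAs and represses their targets. Per the labels, the higher dose gives the Ago2 level of wild-type cells. The groups thus differ at once in doxycycline, in hours of treatment and in the control of Ago2, and these cannot be told apart here. The series asks how microRNA and target amounts set the competition between targets. All 4 libraries came from polyA RNA by the strand-specific UTP method. The labels name no other allele of the line, and since it is clonal the 2 libraries of a group sample 1 clone. The medium of both groups contained serum, leukemia inhibitory factor, nonessential amino acids, L-glutamine and β-mercaptoethanol. A spike-in library of the line with doxycycline and a spike-in library of mesenchymal stem cells are not analysed here.

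Cells cannot make the essential amino acids and take them up through carriers that differ in substrate and mechanism. Slc7a1 and Slc7a3 encode cationic amino acid transporters, which bring in arginine and lysine. Slc7a5, Slc7a7 and Slc7a11 encode light chains that reach the plasma membrane only when disulfide-linked to a glycoprotein heavy chain, 4F2hc, the product of Slc3a2. These pairs are obligatory exchangers that bring in one amino acid for another. Slc1a4 and Slc1a5 encode sodium-dependent exchangers of small neutral amino acids such as serine, alanine and glutamine, and Slc38a1 and Slc38a2 encode sodium-coupled carriers that accumulate glutamine and alanine. Glutamine loaded by these carriers can leave through light chain exchangers in return for leucine, which activates the growth kinase complex mTORC1. When amino acids run short, the kinase GCN2 raises translation of the transcription factor ATF4, and ATF4 switches on several of these genes through amino acid response elements. Mouse embryonic stem cells use much glutamine and depend on threonine.

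Whether known regulators act on these genes here was not tested. Sequences of 2 kinds that such regulators use were searched by their letters, and a few are shown. The first is the amino acid response element that ATF4 binds with C/EBP partners, searched as TGATGCAA on both strands (TTGCATCA on the other strand). RefSeq promoter windows of build GRCm38.p6, from 250 bases before to 50 bases after an annotated start, were at hand for 6 of the 10 genes (Slc7a1, Slc7a7, Slc7a11, Slc3a2, Slc1a4 and Slc38a2). The motif was found in 3 of these 6, against 279 of 27025 genes with a window (1.03%). The windows with the motif in capitals are these, read 5′ to 3′ on the minus strand of each gene.
Slc7a11, chr3:50443564-50443863: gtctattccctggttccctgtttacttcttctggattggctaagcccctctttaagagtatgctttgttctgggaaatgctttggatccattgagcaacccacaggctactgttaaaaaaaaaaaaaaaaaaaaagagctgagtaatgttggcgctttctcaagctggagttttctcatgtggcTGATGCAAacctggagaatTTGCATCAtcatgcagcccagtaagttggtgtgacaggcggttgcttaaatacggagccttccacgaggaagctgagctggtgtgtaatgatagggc
Slc1a4, chr11:20332664-20332963: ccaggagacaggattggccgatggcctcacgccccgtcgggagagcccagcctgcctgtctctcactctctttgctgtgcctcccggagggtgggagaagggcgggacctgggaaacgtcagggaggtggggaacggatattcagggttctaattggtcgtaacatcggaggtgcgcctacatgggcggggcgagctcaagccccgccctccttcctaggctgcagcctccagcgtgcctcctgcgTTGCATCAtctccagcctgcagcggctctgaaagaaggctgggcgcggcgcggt
Slc7a7, chr14:54417895-54418194: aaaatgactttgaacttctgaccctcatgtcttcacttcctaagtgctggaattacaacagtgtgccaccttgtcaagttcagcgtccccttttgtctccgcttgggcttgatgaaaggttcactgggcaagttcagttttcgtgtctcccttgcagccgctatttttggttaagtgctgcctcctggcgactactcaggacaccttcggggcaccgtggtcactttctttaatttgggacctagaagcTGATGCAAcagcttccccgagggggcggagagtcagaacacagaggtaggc
With the annotated start as position 0, the motif began at -66 and again, on the other strand, at -47 in Slc7a11. In Slc1a4 it lay on the other strand at positions -4 to 3, and in 1 of the windows of Slc7a7 it lay at -1 to 6. Slc7a7 has several annotated starts, and the same copy of the motif lay at -243 to -236 of a neighbouring start. These are matches of letters, not measured binding sites, and the windows of Slc7a1, Slc3a2 and Slc38a2 did not contain these letters. Other spellings of the element and sequence outside the windows were not searched, so whether these 3 genes carry the element was not tested.

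The second kind is the seed, bases 2 to 8 of a microRNA, which pairs with sites in 3′ untranslated regions of target messages. Among the abundant microRNAs of mouse embryonic stem cells are the miR-290 and miR-302 clusters and the miR-17 family. Of each seed group 1 mature RefSeq sequence is shown, with its seed in capitals; 5 mature microRNAs share the seed of miR-291a-3p and 7 share that of miR-17-5p.
miR-291a-3p: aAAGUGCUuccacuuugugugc
miR-17-5p: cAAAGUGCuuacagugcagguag
Where a gene has several 3′ untranslated regions the longest was searched. Sites of at least 7 bases for miR-291a-3p were present in 2 of the 10 genes, Slc7a11 and Slc3a2, against 18.4% of 21166 genes. Sites for miR-17-5p were present in 3 of the 10, Slc7a1, Slc7a11 and Slc38a1, against 19.2%. Of these, 1 site each is shown for the genes that were tested for a change, with the bases that pair, and an A opposite base 1 where the site has one, in capitals.
Slc3a2, miR-291a-3p: ctttggtgagGCACTTAccatatagac
Slc7a1, miR-17-5p: caccgtccagGCACTTTgtctcctagg
Slc38a1, miR-17-5p: ggggtgctcaCACTTTAgggaacccag
Slc7a3, Slc7a5, Slc7a7, Slc1a4, Slc1a5 and Slc38a2 had no site of either seed in the region searched. Their regions had 241 to 2735 nt, against 7364 nt in Slc7a11, 5293 nt in Slc38a1, 5030 nt in Slc7a1 and 841 nt in Slc3a2. A longer region holds more places for a site.

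Levels are FPKM, fragments per kilobase of transcript and library size, summed over a gene's isoforms, so levels can be set side by side between genes. Differences are log2 values of the cells without doxycycline minus the cells with it, computed on log2(FPKM + 0.5), which understates the change of low genes. They were tested with limma and Benjamini-Hochberg adjustment at 0.05 over the 13263 genes that averaged at least 1 FPKM in either group. With 2 libraries a group an exact permutation test of 1 gene cannot give a p under 0.333, so the calls rest on a spread shared across genes. Ago2 itself had 28.7 and 28.8 FPKM without doxycycline, against 35.2 and 36.7 FPKM with it (log2 -0.32, limma adjusted p = 0.0292). Leaving out any 1 of the 4 libraries ended that call (adjusted p of 0.0781 to 0.206), and whether this row counts reads of the doxycycline-driven copy was not tested. In the libraries numbered 1, whole read steps fitted 98.1% of the values without doxycycline and 97.8% with it, which gave about 47.1 M and 46.8 M fragments. In the libraries numbered 0 only 41.0% and 43.2% did, and their depth is unknown. The 10 embryonic stem cell markers, among them Pou5f1 and Sox2, were all above 1 FPKM and summed to between 4402 and 4989 FPKM without doxycycline and between 4221 and 4712 FPKM with it (2 higher, 3 lower, 5 not called). Of the 6 primitive endoderm markers 1 was tested, Gata4, which was higher without doxycycline (log2 0.68, limma adjusted p = 0.0372). It had 1.27 and 1.39 FPKM without doxycycline, against 0.498 and 0.814 FPKM with it. The sums of the 6 went the other way, with 1.70 to 1.95 FPKM without doxycycline and 2.09 to 2.43 FPKM with it. The 6 trophoblast markers summed to between 50.5 and 58.0 FPKM without doxycycline and 33.0 to 36.0 FPKM with it. Of the 3 tested, only Krt8 passed, as higher, and 2 were higher at an unadjusted p under 0.05 in limma. The 4 mesoderm markers summed to at most 1.83 FPKM, with Kdr higher without doxycycline, and the 4 neural markers to 63.9 to 76.7 FPKM without doxycycline and 69.7 to 74.1 FPKM with it, with Nes higher. The 6 fibroblast markers, mostly Vim, summed to between 146 and 277 FPKM without doxycycline and 87.4 to 122 FPKM with it, and neither of the 2 tested passed in limma (1 at an unadjusted p under 0.05). No marker of these lists was at 0 in every library, and the part of these shifts in the results below was not tested.

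Without doxycycline, 8 of the 9 transporter genes tested were lower and none was higher. They were Slc7a1, Slc7a3, Slc7a5, Slc7a7, Slc3a2, Slc1a4, Slc1a5 and Slc38a1, to between 49.3% and 81.4% of the mean level with doxycycline. At an unadjusted p under 0.05 the limma counts were 8 lower and 0 higher. Slc38a2 did not pass and stood at 120.5% of its level with doxycycline, and Slc7a11, the cystine carrier, was under 1 FPKM in both groups and was not tested. Of all 13263 genes, 2776 were lower (20.9%) and 2580 higher (19.5%), 40.4% together. The share of the transporters that was lower, 8 of 9, stood above that of all genes. The transporters were chosen with earlier results of these data known, so this share is no independent test of the group. In 8 of the 9 tested genes both libraries without doxycycline lay below both libraries with it, which held for 40% of all genes tested, and in Slc38a2 both lay above, as in 33.1%. In Slc7a11, which was not tested, both lay below as well. The median change of the 9 tested transporters was -0.66 on the log2 scale, against -0.06 for all genes (quartiles -0.34 and 0.28). The FPKM of the 10 genes added up to 503 and 487 without doxycycline and to 723 and 668 with it. The summed transporter message was thus 71.2% of its level with the drug. The isoforms used of all genes added up to 0.449 M and 0.485 M FPKM without doxycycline, against 0.509 M and 0.535 M with it. That total was therefore lower without the drug as well. Fewer expressing cells and less RNA per cell cannot be told apart in these bulk libraries. The count of 8 fell to 5 without library 1 of the cells without doxycycline, without library 0 of the cells with it, and on a TPM scale. TPM moved the median of all genes up by 0.16, and the share of higher genes among all calls was 67.8% there against 48.2% in FPKM.

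**Figure D1:**
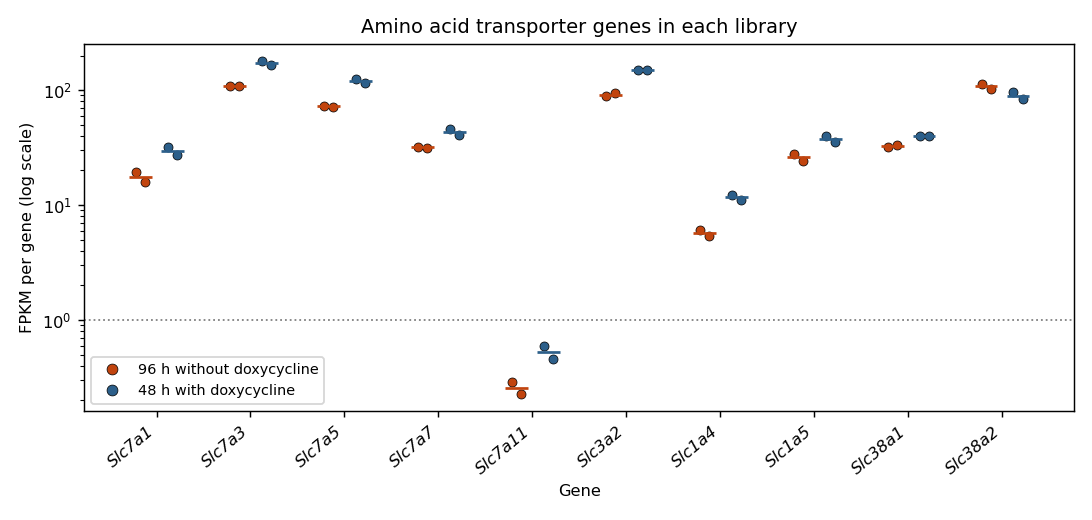
Level of each transporter gene in each library, in FPKM on a log axis, with cells 96 h without doxycycline (orange) left of cells 48 h with it (blue); points are libraries and short lines group means (2 libraries each). In 9 genes both points without doxycycline lie below both points with it, and in Slc38a2 both lie above.

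Both cationic amino acid transporter genes fell. Slc7a3 (chrX:98274549-98281359, minus strand, NCBIM37), the arginine and lysine carrier CAT-3, was the most abundant transporter in the cells with doxycycline. It had 109.1 and 109.0 FPKM without doxycycline, against 180.4 and 165 FPKM with it. The 2 libraries without the drug differed by less than 1 FPKM and lay well under both libraries with it, and the groups did not overlap. The change was -0.66 (SE 0.09, adjusted p = 0.00609), and set against the median of all genes it was -0.61 in FPKM and -0.60 in TPM. Slc7a1 (chr5:149138986-149211480, minus strand) encodes CAT-1, the widely expressed arginine carrier that also serves as the receptor of ecotropic mouse retroviruses. It had 19.4 and 16.0 FPKM without doxycycline, against 32.1 and 27.4 FPKM with it. Both libraries without the drug lay below both with it. The change was -0.74 (SE 0.13, adjusted p = 0.0133), close to that of Slc7a3. Slc7a3 was 5.63 and 6.82 times as abundant as Slc7a1 without doxycycline and 5.62 and 6.04 times with it, so the ratio overlapped between the groups. Slc7a2, another gene of this family, stayed under 1 FPKM and was not tested.

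The heavy chain gene and Slc7a5, the most abundant of the 3 light chains, fell by like amounts. Slc3a2 (chr19:8781372-8797859, minus strand), which encodes 4F2hc, had 88.5 and 94.1 FPKM without doxycycline, against 149.7 and 149 FPKM with it. Both libraries with the drug agreed closely and lay above both without it. The change was -0.71 (SE 0.08, adjusted p = 0.00467). Slc7a5 (chr8:124405052-124431594, minus strand) encodes LAT1, the light chain that imports leucine and other large neutral amino acids. It had 73.3 and 71.7 FPKM without doxycycline, against 126 and 115 FPKM with it, again with no overlap. The change was -0.73 (SE 0.09, adjusted p = 0.00473). Per unit of Slc3a2 message, Slc7a5 stood at 0.829 and 0.763 without doxycycline and at 0.839 and 0.776 with it. The 2 ratios of each group spanned nearly the same range.

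The other light chains were less abundant. Slc7a7 (chr14:54989128-55036804, minus strand) encodes y+LAT1, which exchanges intracellular cationic amino acids for neutral ones and is mutated in lysinuric protein intolerance in humans. It had 32.1 and 31.3 FPKM without doxycycline, against 46.0 and 40.9 FPKM with it, with no overlap. The change was -0.45 (SE 0.09, adjusted p = 0.0193), and it lost its call without library 0 or library 1 of the cells without doxycycline (adjusted p = 0.0515 and 0.0564), without library 0 of the cells with it (0.125), in TPM (0.0887) and with the most abundant isoform alone (log2 -0.01, adjusted p = 0.987). Its message per unit of Slc3a2 was 0.363 and 0.333 without doxycycline and 0.307 and 0.275 with it, so it was higher in both libraries without the drug. An exact permutation test of that ratio cannot go below 0.333. Slc7a11 (chr3:50168858-50247535, minus strand) encodes xCT, which brings in cystine in exchange for glutamate and supplies cysteine for glutathione; the medium held β-mercaptoethanol, a thiol. It had 0.289 and 0.226 FPKM without doxycycline, against 0.595 and 0.462 FPKM with it. In the libraries numbered 1 that was about 67 fragments without doxycycline and 160 fragments with it. The groups did not overlap and the mean without doxycycline was 48.7% of that with it, but the level is under the minimum of 1 FPKM, and with no filter on low values the adjusted p was 0.0713 (8.2% of all genes were lower in that fit). The light chains Slc7a5, Slc7a7 and Slc7a11 added up to 106 and 103 FPKM without doxycycline and to 172 and 157 FPKM with it, or 63.5%.

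Slc1a4 had the largest change of the 9 tested transporters. It lies at chr11:20202183-20232744 on the minus strand and encodes ASCT1, an exchanger of serine, alanine, cysteine and threonine. It had 6.11 and 5.40 FPKM without doxycycline, against 12.33 and 11.03 FPKM with it. Both values without the drug were below both with it. The change was -0.96 (SE 0.11, adjusted p = 0.00424), and only 2.62% of all genes tested had a more negative change. Slc1a5 (chr7:17366695-17383623, plus strand), which encodes ASCT2, the main sodium-dependent glutamine exchanger of many dividing cells, had 28.05 and 24.02 FPKM without doxycycline, against 40.2 and 35.1 FPKM with it. The groups did not overlap. The change was -0.53 (SE 0.12, adjusted p = 0.0235), and it was lost without library 1 of the cells without doxycycline (adjusted p = 0.0662), without library 0 of the cells with it (0.101), with no filter (0.0596) and in TPM (0.0989). Slc1a5 was 4.59 and 4.45 times as abundant as Slc1a4 without doxycycline and 3.26 and 3.18 times with it. Both ratios without the drug were above both with it.

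The sodium-coupled carriers had the smallest differences of the tested genes, and of the pair Slc38a1 passed. Slc38a1 (chr15:96401849-96473653, minus strand), which encodes SNAT1, had 31.9 and 33.1 FPKM without doxycycline, against 40.2 and 39.7 FPKM with it. The libraries of each group agreed closely, and the groups did not overlap. The change was -0.29 (SE 0.08, adjusted p = 0.0362); relative to the median of all genes it was -0.24, and its call ended when any 1 library was left out (adjusted p of 0.0756 to 0.21), in TPM (0.202), with the most abundant isoform alone (0.0718) and with the median change of all genes set to 0. Close by on the chromosome, Slc38a2 (chr15:96517825-96530129, minus strand), encodes SNAT2, whose message and protein rise in amino acid starved cells. It had 114 and 102 FPKM without doxycycline, against 95.5 and 83.8 FPKM with it. Both libraries without the drug were above both with it, with means of 108 ± 8.53 FPKM without and 89.7 ± 8.27 FPKM with it (SD, n = 2 each). The difference was 0.27 (SE 0.11, adjusted p = 0.109) and did not pass. Slc38a2 was 3.57 and 3.08 times as abundant as Slc38a1 without doxycycline and 2.38 and 2.11 times with it, and without doxycycline it stood at about the level of Slc7a3, the most abundant transporter with the drug.

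**Figure D2:**
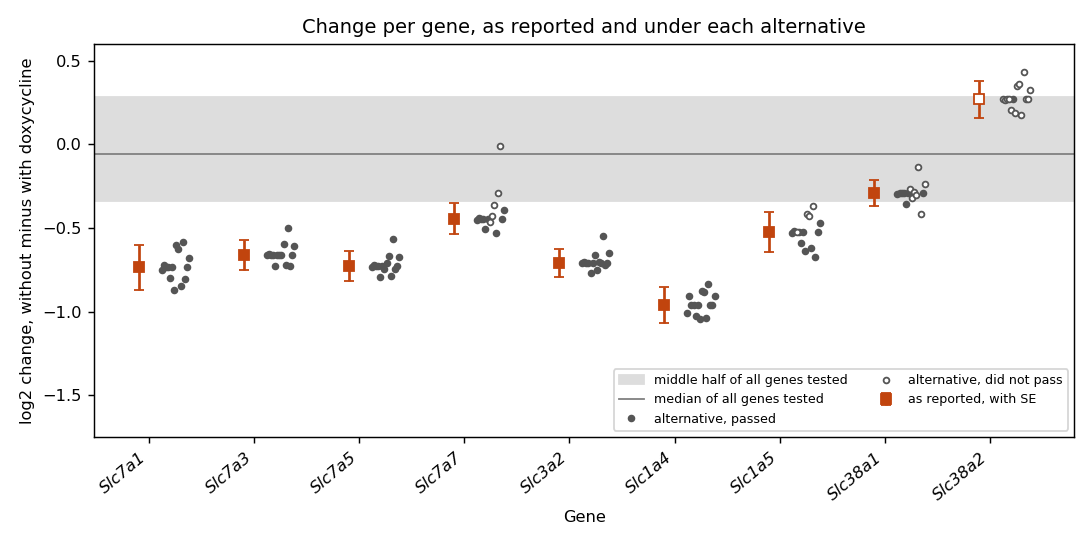
Change of each tested transporter gene on the log2 scale, cells without minus cells with doxycycline, as reported (squares with SE) and under each of the 14 alternative ways of processing (circles; filled where the adjusted p was under 0.05). The band marks the quartiles of all 13263 genes (-0.34 to 0.28) and the line their median (-0.06); Slc1a4 lies lowest at -0.96 and Slc38a2 highest at 0.27.

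The 5 genes with the largest changes, Slc7a1, Slc7a3, Slc7a5, Slc3a2 and Slc1a4, passed in all 14 alternatives tried, with adjusted p of at most 0.0428, 0.0417, 0.0267, 0.0251 and 0.0239. Slc7a7 passed in 9 of them, Slc1a5 in 10 and Slc38a1 in 7. With doxycycline the order from high to low was Slc7a3, Slc3a2, Slc7a5, Slc38a2, Slc7a7, Slc38a1, Slc1a5, Slc7a1, Slc1a4 and Slc7a11. The libraries of Slc38a1 and Slc1a5 overlapped there, and the gap from Slc7a7 to Slc38a1 was smaller than the spread between the libraries of Slc7a7. Without doxycycline Slc7a3 and Slc38a2 shared the top, with libraries that overlapped, followed by Slc3a2 and Slc7a5, then Slc38a1 and Slc7a7, which lay within 2 FPKM of each other, and then Slc1a5, Slc7a1, Slc1a4 and Slc7a11.

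**Figure D3:**
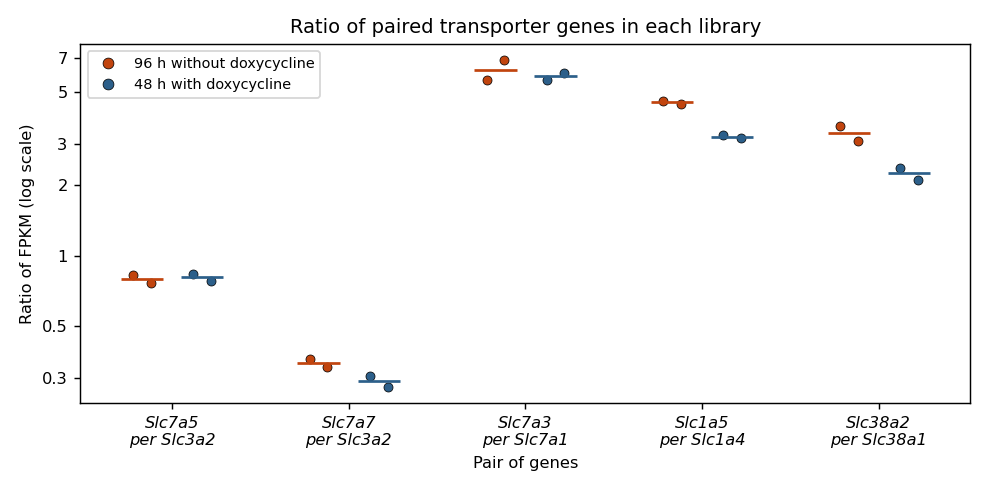
Ratios of FPKM between paired transporter genes in each library, cells without doxycycline (orange) left of cells with it (blue), as points with the group mean. Slc7a5 per Slc3a2 overlaps between the groups (0.763 to 0.829 without and 0.776 to 0.839 with doxycycline), while Slc1a5 per Slc1a4 and Slc38a2 per Slc38a1 are higher in both libraries without it.

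The isoforms of a gene share its reads, and their split by the authors' assembly is less certain than the sum. Of the 69 isoforms of the 10 genes that were used, 42 averaged at least 1 FPKM in either group. None of them passed, nor did any of the 32943 isoforms tested, the smallest adjusted p of limma being 0.0542. At an unadjusted p under 0.05 there were 6053 isoforms in all, and 14 of the 42, all of them lower, against 9.87% of all isoforms lower. Both libraries without doxycycline were below both with it in 21 of the 42 (27.9% of all isoforms tested), above both in 4 (23.1%), and 17 overlapped. In Slc38a2, Slc3a2, Slc7a5, Slc1a4 and Slc7a1, 1 isoform held at least 79.4% of the gene's mean in each group. The 1865-nt isoform of Slc3a2 had 83.5 and 90.4 FPKM without doxycycline, against 143 and 144 FPKM with it, and made up 95.3% of the gene's mean without doxycycline and 96.1% with it. The 3504-nt isoform of Slc7a5 had 68.9 and 65.1 FPKM without doxycycline, against 113 and 112 FPKM with it. The 7179-nt isoform of Slc7a1 had 13.3 and 14.8 FPKM without doxycycline, against 25.1 and 24.6 FPKM with it, so the main isoform of each of these genes was lower in both libraries. The 3926-nt isoform of Slc1a4 did likewise, with 5.41 and 4.83 FPKM without doxycycline, against 11.01 and 9.90 FPKM with it. In Slc1a5 the 2741-nt isoform had 17.9 and 14.2 FPKM without doxycycline, against 26.61 and 25.01 FPKM with it. It made up 61.7% of the gene's mean without doxycycline and 68.5% with it.

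Slc7a3, Slc38a1 and Slc7a7 were, like Slc1a5, spread over more isoforms. In Slc7a3 the 2232-nt isoform had 77.1 and 80.8 FPKM without doxycycline, against 137 and 125 FPKM with it, and the 2371-nt isoform 10.7 and 10.4 FPKM without doxycycline, against 13.9 and 13.2 FPKM with it. In Slc38a1 the 2386-nt isoform had 13.01 and 14.00 FPKM without doxycycline, against 17.4 and 18.9 FPKM with it. The 7059-nt isoform of the same gene had 9.46 and 7.85 FPKM without doxycycline, against 8.78 and 8.49 FPKM with it, so the first was lower in both libraries while the second overlapped. The 7575-nt isoform had 5.00 and 4.47 FPKM without doxycycline, against 8.51 and 6.22 FPKM with it. The 16 isoforms of Slc7a7 share their 3′ end in the annotation and varied widely between libraries of 1 group. Its 1938-nt isoform had 5.03 and 0.0726 FPKM without doxycycline, against 5.30 and 11.8 FPKM with it, and its 2059-nt isoform had 7.58 and 7.92 FPKM without doxycycline, against 11.95 and 5.04 FPKM with it. Slc7a7 overlaps Oxa1l, which lies on the other strand, and whether the authors' estimates used strand is not given in the sources used here.

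**Figure D4:**
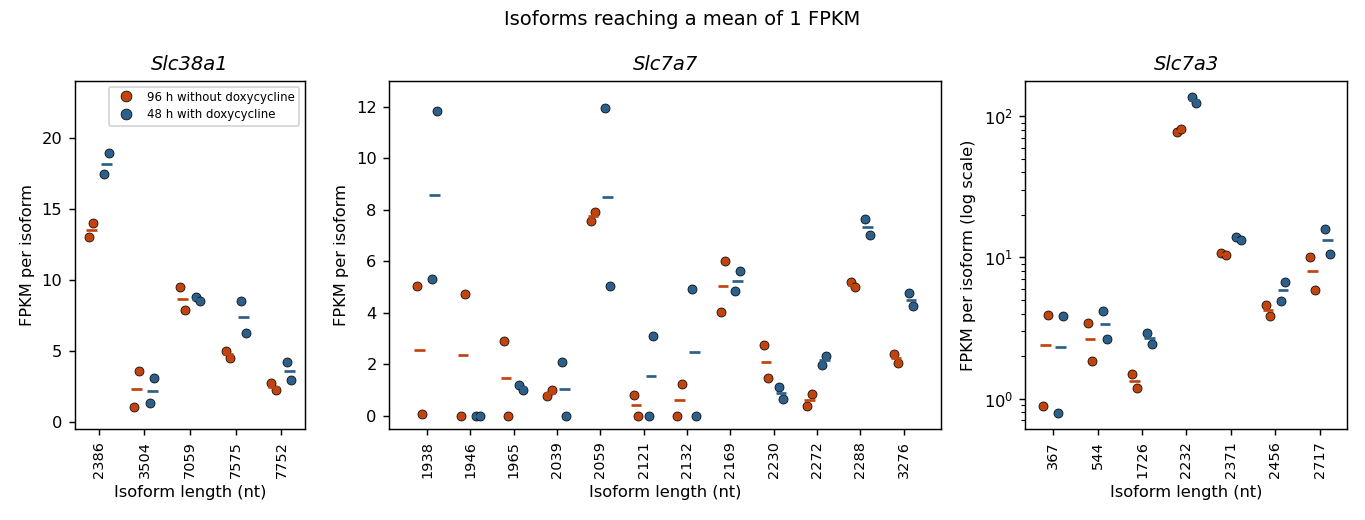
Level of each isoform that reached a mean of 1 FPKM in Slc38a1, Slc7a7 and Slc7a3, by isoform length in nt, in cells without doxycycline (orange, left) and with it (blue, right); points are libraries, short lines group means, and the axis of Slc7a3 is logarithmic. The 2386-nt isoform of Slc38a1 and the 2232-nt isoform of Slc7a3 are lower in both libraries without doxycycline, while several isoforms of Slc7a7 differ more within a group than between groups.

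The other amino acid carriers were evenly split in direction. Of 42 such genes 19 were tested, 5 were higher, 5 lower and 9 not called, with a median change of 0.02. The lower genes were 26.3% of those tested, against 20.9% of all genes, of which 19.5% were higher. Slc1a3, the glial glutamate and aspartate carrier, fell to 2.79 and 2.35 FPKM without doxycycline, against 7.02 and 7.34 FPKM with it (-1.33, adjusted p = 0.00258). Slc43a2, which encodes the facilitated carrier LAT4, fell to 2.93 and 2.59 FPKM without doxycycline, against 7.19 and 6.23 FPKM with it (-1.14, adjusted p = 0.00352). Slc38a5, the glutamine and histidine carrier SNAT5, rose to 4.50 and 3.65 FPKM without doxycycline, against 1.59 and 1.65 FPKM with it (1.10, adjusted p = 0.00473; with the most abundant isoform alone 0.40, adjusted p = 0.42). The count of lower genes in this list was 3 without library 1 of the cells without doxycycline and 3 without library 1 of the cells with it. Among 8 tested lysosomal carriers of amino acids and cystine, 2 were higher (19.5% of all genes), none was lower (20.9% of all genes) and 6 were not called. Slc36a1, Slc38a7 and Slc38a9 are members of both lists, so the 2 lists are not separate counts. Slc36a1, the proton-coupled carrier PAT1, rose to 12.1 and 10.9 FPKM without doxycycline, against 5.29 and 4.59 FPKM with it (1.14, adjusted p = 0.00307). Mfsd12, which is needed for cysteine import into lysosomes and melanosomes, rose as well (0.80, adjusted p = 0.00628; with the most abundant isoform alone 0.55, adjusted p = 0.0662). Ctns, the cystine exporter, and Slc15a4, a histidine and peptide carrier, were at 0.33 and 0.36 and did not pass (adjusted p = 0.0615 and 0.0854). Ctns passed in TPM (adjusted p = 0.0153) and with the median change of all genes set to 0 (0.0422), and Slc15a4 without library 0 of the cells with doxycycline (0.0409). At an unadjusted p under 0.05 in limma, none of the 8 was lower and 4 were higher.

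Genes of the ATF4 axis that passed in FPKM were all lower, while in TPM 6 were lower and 3 higher. Of 18 tested, 8 were lower (44.4%, against 20.9% of all genes), none higher (19.5% of all genes) and 10 not called, with a median of -0.33. At an unadjusted p under 0.05 in limma 1 was higher. Chac1, which degrades glutathione, fell to 2.72 and 2.51 FPKM without doxycycline, against 11.8 and 12.2 FPKM with it (to 21.8% of its level with doxycycline, adjusted p = 0.00155). Asns, asparagine synthetase, averaged 179 ± 6.10 FPKM without doxycycline and 351 ± 14.6 FPKM with it (SD, n = 2 each; -0.97, limma adjusted p = 0.00292). Trib3, a pseudokinase induced by ATF4, and Nupr1, a stress-induced chromatin protein, fell by 1.11 and 0.94 on the log2 scale (adjusted p = 0.00288 and 0.0128; for Nupr1 0.0505 with the most abundant isoform). Atf4 itself averaged 172 ± 12.1 FPKM without doxycycline and 271 ± 17.9 FPKM with it (-0.66, limma adjusted p = 0.00887). Atf4 was chosen after its values were seen, because its protein binds the motif shown above. Without library 1 of the cells with doxycycline 5 genes of the list were lower.

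The sensing machinery moved in both directions, as did all genes, and its calls depended on single libraries. Of 33 tested genes of amino acid sensing and mTORC1, 11 were lower, 6 higher and 16 not called, with a median of -0.12. The lower genes were 33.3% of those tested, against 20.9% of all genes, of which 19.5% were higher. Rragb, a Rag GTPase that tethers mTORC1 to lysosomes, fell to 9.81 and 8.16 FPKM without doxycycline, against 22.0 and 21.1 FPKM with it (-1.22, adjusted p = 0.00288). Lamtor4, a subunit of the Ragulator anchor, and Nprl3, a subunit of the GATOR1 inhibitor, fell by 0.64 and 0.44 on the log2 scale (adjusted p = 0.0421 and 0.0286), and Sesn1, a leucine-responsive sestrin, rose (0.46, adjusted p = 0.0154). Of the 4 fits that leave out a library, Lamtor4 kept its call only without library 1 of the cells without doxycycline (0.0595 to 0.0975 in the others), Nprl3 only without library 0 of the cells with it (0.0671 to 0.148 in the others), and Sesn1 lost its call without library 0 of the cells without doxycycline (0.0628) and without library 1 of the cells with it (0.0812). Lamtor4 also lost its call with no filter (adjusted p = 0.107), with the most abundant isoform (0.0863) and with the median change set to 0 (0.0548), Nprl3 with no filter (0.0654) and in TPM (0.0809), and Sesn1 with the most abundant isoform (0.169). With the most abundant isoform alone Nprl3 changed direction (log2 1.09, limma adjusted p = 0.0874). Without libraries 0 and 1 of the cells without doxycycline in turn, 3 and 6 genes of the list were lower and 1 and 2 higher. Without libraries 0 and 1 of the cells with doxycycline in turn, 2 and 1 were lower and 1 and 0 higher, and in TPM 2 were lower and 10 higher. Of 8 tested glucose and lactate carriers, taken as another class, 2 were lower (25%, against 20.9% of all genes), 1 higher and 5 not called. Slc2a3, the glucose carrier GLUT3, averaged 219 ± 27.3 FPKM without doxycycline and 363 ± 26.8 FPKM with it (SD, n = 2 each; -0.73, limma adjusted p = 0.011). Slc16a1, the lactate carrier MCT1, fell by 0.76 on the log2 scale (adjusted p = 0.0041), Slc5a1, the sodium-coupled glucose carrier SGLT1, rose by 1.71 (adjusted p = 0.00201), and Slc16a3, the lactate exporter MCT4, was at -0.77 and did not pass (adjusted p = 0.0843). Without library 0 of the cells without doxycycline 4 genes of this class were lower, among them Slc16a3 (-1.19, adjusted p = 0.00992).

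**Figure D5:**
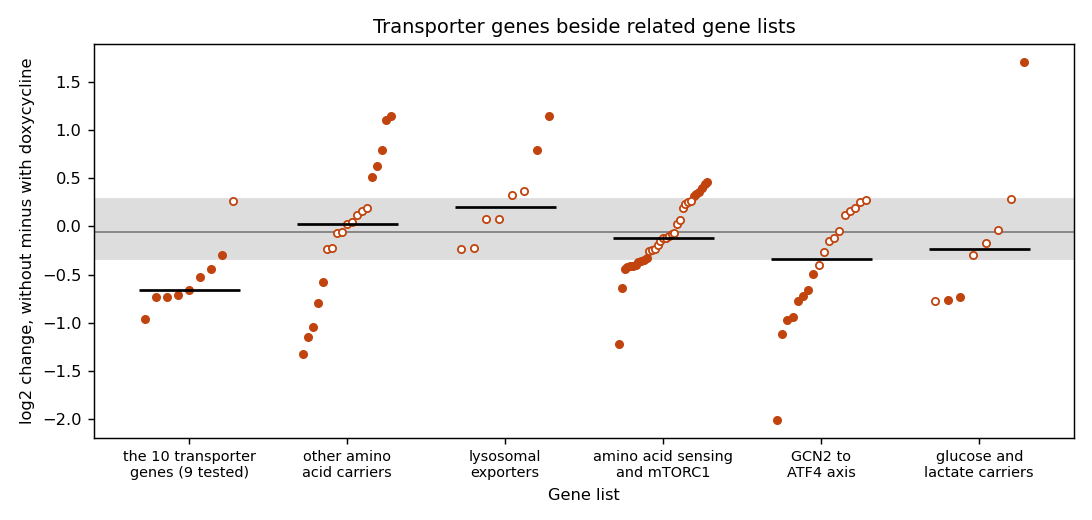
Change of every tested gene of the transporters and of the 5 related lists on the log2 scale, cells without minus cells with doxycycline; points are genes, filled where the adjusted p was under 0.05, and lines are list medians. The 9 tested transporters have a median of -0.66, the ATF4 axis of -0.33 and the other amino acid carriers of 0.02.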

How the data were processed

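PolyA RNA of TT-FHAgo2 mouse embryonic stem cells was sequenced in 2 libraries without doxycycline and 2 with it. The authors deposited FPKM values per isoform. The submitters' processing notes name TopHat2 2.0.9, Cufflinks 2.1.1 and the NCBIM37 build; the total that FPKM was scaled to is not given in the sources used here. Columns marked P48 and M96 were read as plus doxycycline for 48 h and minus doxycycline for 96 h. Isoforms of at least 200 nt that matched a named transcript or shared a splice junction with one, per the deposited annotation, were summed per gene symbol (141569 of 181027 isoforms). Shorter isoforms held 98.9% to 99.6% of a library's summed FPKM; those used added up to 0.449 M and 0.485 M FPKM without doxycycline and 0.509 M and 0.535 M with it. Dates stood in place of 25 symbols (236 isoforms) and were restored from a second table, whose shared values differed in 5447 of 362054 cases, by at most 0.482%.

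Genes averaging 1 FPKM or more in 1 of the groups were tested on log2(FPKM + 0.5) under R 4.3.3 by limma 3.58.1, two-sided, with a trend (degrees of freedom: 2 residual, 3.10 prior), at a Benjamini-Hochberg adjusted p of 0.05, after a check on simulated data. The libraries' numbers 0 and 1 are those of the file columns and were not matched to the labels' replicate numbers, so libraries were treated as unpaired. The labels do not say whether libraries of a group were separate cultures; p-values then measure the spread between these libraries, which may be technical. Depth was read from steps of whole reads (within 0.1 read) in isoforms of at least 500 nt. The text names the 10 genes, Ago2 and, in each of the 5 related lists, the 4 tested genes with the largest absolute change. A few other genes are named besides, among them cell type markers and Atf4, which was chosen after its values were seen. The members and lists were chosen with earlier results of these data known. Alternatives covered the pseudocount (0.1 and 1), the minimum level, scaling, isoform choice, a block by library number and leaving out each library; setting the median change to 0 was added after seeing the data. Promoters and microRNAs are RefSeq sequences of GRCm38.p6, and 3′ untranslated regions are GENCODE annotations of GRCm38; these were used for sequence only.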

Additional observations from a re-analysis of the deposited data

How the results depend on the processing

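Under the 14 alternatives, Slc7a1, Slc7a3, Slc7a5, Slc3a2 and Slc1a4 kept their direction and their call. Of all genes, the number higher was 3957 in TPM and 1046 with the most abundant isoform alone, and 1700 to 1977 when 1 library was left out, against 2580 as reported. The number lower was 977 with the most abundant isoform, 4521 with library number as a replicate block, and 1319 to 2367 with 1 library left out, against 2776. Of the transporters, 5 were lower in TPM and 5 to 7 with 1 library left out; only the block made 1 higher, Slc38a2 (adjusted p = 0.00769). The block also called Ctns (0.0153), Slc15a4 (0.0207) and Slc16a3 (0.0137), and 5 glucose and lactate carriers lower instead of 2. The library numbers were not matched to the labels' replicate numbers, so the block is a value beside the unpaired result. The correlation of same-numbered deviations over 2 pairs was 0.465, and whether libraries of 1 number share a batch was not tested. A minimum of 5 FPKM called 1 isoform, of no transporter, where 0 passed as reported. With the most abundant isoform alone the direction turned for Nprl3 (1.09) and Slc15a4 (-0.35). The cause of these shifts was not tested. The 2 libraries a group and the unknown depth of the libraries numbered 0 limit the precision.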
